A study of Mus musculus with 6 samples.

Results

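The regions described here are the ChIRP-seq peaks of mouse chromosome 11, the chromosome from which the long noncoding RNA Bloodlinc is transcribed. They were chosen by chromosome alone, as every entry for chromosome 11 in the lists deposited for the Bloodlinc pulldown, the even-numbered probes and the odd-numbered probes and in the consensus list, in mm9. This gave 24 of 517 pulldown peaks, 1010 of 18114 even peaks, 1129 of 20596 odd peaks and 11 of 268 consensus regions, in all 2174 of 39495 entries. The libraries came from MEL, an erythroleukaemia cell line of the mouse that differentiates along the erythroid path in dimethyl sulfoxide (DMSO). All were made after 5 days in 2% DMSO, per the labels. There were 6 conditions: the pulldown, whose label names no probe pool, the even pool, the odd pool, input DNA, and controls made with RNase or with no probes. Each had 1 library, so nothing could be tested over replicates, and every statement concerns these libraries. Input DNA is labelled like the rest, yet its peak names contain MELd0.

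ChIRP (chromatin isolation by RNA purification) fishes an RNA out of crosslinked chromatin with biotinylated DNA probes that tile the RNA, and the DNA that comes along is sequenced. Even and odd probes tile the same RNA at different positions, so a site held by the RNA should appear in both pools, while DNA caught by single probes should appear in 1 pool. The RNase control shows DNA caught when the RNA is removed, and the control without probes shows DNA that sticks to the beads. Enhancer RNAs are known for acting on genes beside their own site, and some long noncoding RNAs also act on distant sites. The profile by distance addresses where on its own chromosome the captured DNA lay.

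In the RefSeq annotation of GRCm38, Bloodlinc is a lncRNA gene of 1470 bp on chromosome 11. Its neighbours there are, in order along the chromosome, Ubtf (a factor of ribosomal RNA transcription), Slc4a1 (band 3, the anion exchanger of the red cell membrane), the lncRNA Gm34253, Bloodlinc, Rundc3a and Slc25a39 (a mitochondrial carrier needed for heme synthesis). Itga2b, the platelet integrin subunit, is the 6th gene after Bloodlinc. The same chromosome carries the alpha-globin genes Hba-x, Hba-a1 and Hba-a2 and the transcription factor genes Bcl11a, Ikzf1, Stat5a and Stat5b. The peaks are in mm9, for which no annotation or sequence was used here, so no peak was assigned to any of these genes, and whether the highest pulldown peak lies on Bloodlinc was not determined. Distances were taken instead from the midpoint of that peak. Positions are given from 1, and "before" and "after" mean towards lower and higher positions.

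The pulldown peak taken as the centre was picked for its score, the highest of its list, and it was also the widest of that list. It spanned 102233495 to 102238439 and was 4945 bp wide, where the next widest pulldown peak of the chromosome had 864 bp (a ratio of 5.72) and the widest on any other chromosome had 1118 bp. Its score of 4188 compares with 1276 for the next pulldown peak of chromosome 11, a ratio of 3.28, and with 3081 for the highest on any other chromosome, a ratio of 1.36. The scores are the authors' own whole numbers per peak, whose scale no source used here gives. They were ranked and compared only within a list, and ratios of scores cannot be read as fold differences in captured DNA.

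Both pools placed their signal in the later part of this peak. The highest even peak, at 102235636 to 102237263, was 1628 bp wide, 3.73 times the median even width, and was the 2nd widest of all even peaks. A further even peak at 102237409 to 102237943 followed after a gap of 145 bp. The odd peak at 102235676 to 102238419 was 2744 bp wide, 6.21 times the median odd width, and the widest of all 20596. Even peaks covered 2163 bp of the pulldown peak, odd peaks 2744 bp, and both together 2123 bp, so nearly all even positions were odd positions too. The first 2141 bp of the pulldown peak held neither an even nor an odd peak. In that stretch lay the only control peaks here, a no-probe peak of 181 bp with a score of 52 (rank 60 of 124) and an RNase peak of 128 bp with a score of 50 (rank 71 of 141). The uncovered share of the pulldown peak was 43.7%.

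**Figure D1:**
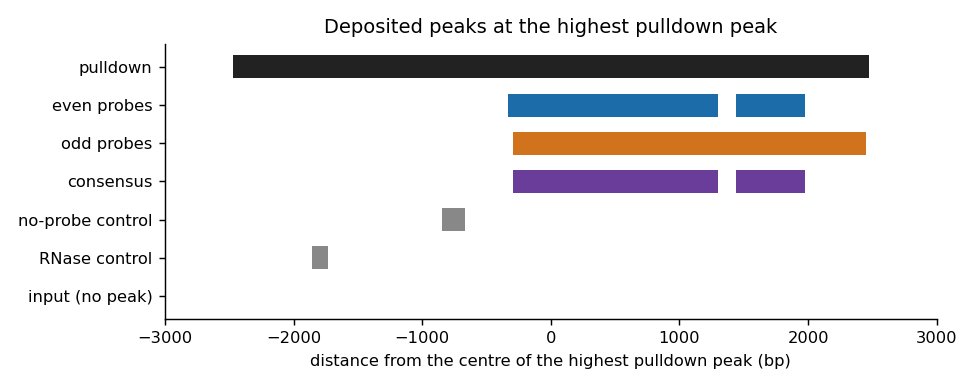
Deposited peaks of each list at the highest pulldown peak; the x axis is the distance in bp from its centre, and each bar is 1 peak or consensus region. The even and odd bars start 331 and 291 bp before the centre and lie mostly after it, while the no-probe and RNase bars lie before them and the input has no peak.

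The surroundings of this peak were not filled with further high peaks. On the side before it, no even or odd peak lay within 100.8 kb. On the other side the nearest was an even peak at 102253532 to 102253896, 15.1 kb away. Within 100 kb of the centre there were 3 more even peaks, all after it, with scores of 920, 1341 and 659 (ranks 11235, 6454 and 16606), and 1 more odd peak at 102301415 to 102301838 with a score of 838 (rank 15120). None of these 4 peaks met a peak of the other pool or of the pulldown, as was usual in both lists. Over all chromosomes 15.4% of even and 13.5% of odd peaks met the other pool, and 1.72% and 2.29% met a pulldown peak. Long gaps were common on the chromosome: of 2138 spacings between successive even and odd midpoints, 333 (15.6%) were at least as long as 100.8 kb, and the median was 34.6 kb.

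**Figure D2:**
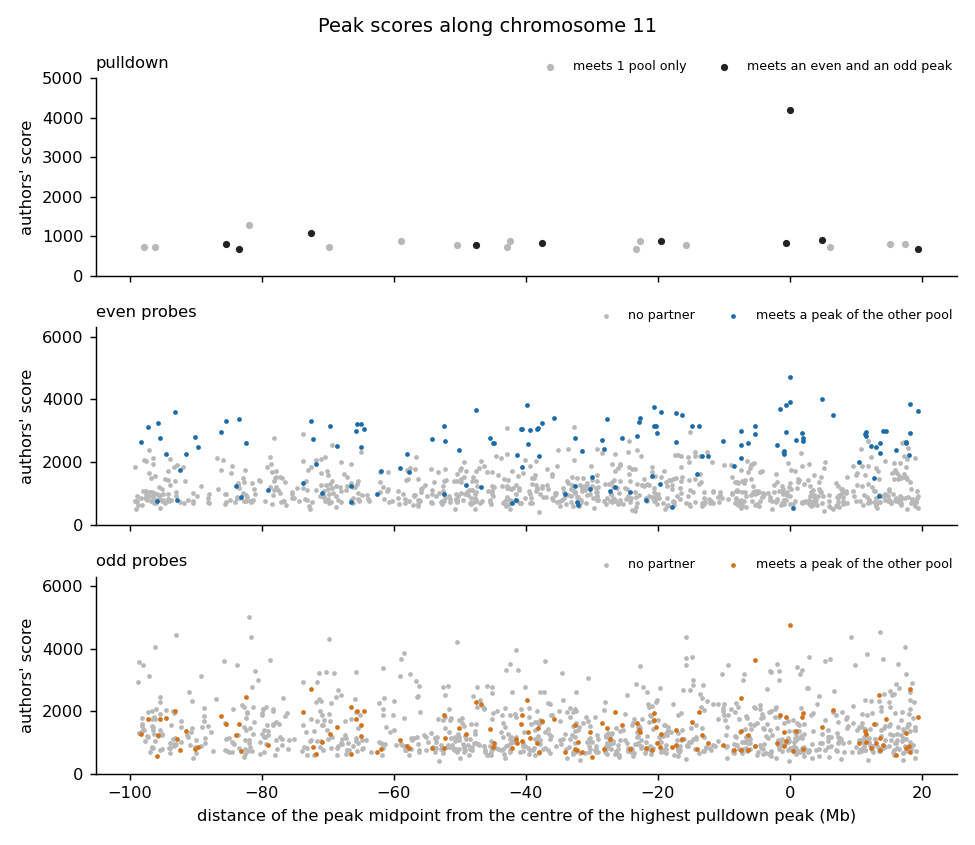
Authors' score of each chromosome 11 peak (y axis, unitless, not comparable between lists) against the distance of its midpoint from the centre of the highest pulldown peak (x axis, Mb), for the pulldown, even and odd lists. Coloured points meet a peak of the other pool (pulldown: of both pools), grey points do not. The pulldown score at distance 0 is 4188, and the other 23 lie between 674 and 1276.

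The next consensus region before the highest peak lay 0.530 Mb away. It spanned 101705382 to 101705846 and had a pulldown score of 828, which is rank 249 of 517. Its even peak ranked 68th with a score of 3817 and its odd peak ranked 4961st with a score of 1803. The pulldown peak there, 864 bp wide, was the 8th widest of its list. After the highest peak, the next consensus region was at 107133512 to 107133967, 4.90 Mb away, with a pulldown score of 893, an even score of 4002 (rank 34) and an odd score of 1487 (rank 7102). These were the only other pulldown peaks within 5 Mb.

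Those 2 pulldown peaks made a density within 5 Mb of 0.200 per Mb, where the rest of the chromosome had 21 peaks, or 0.193 per Mb. The ratio of 1.04 had an exact 95% interval of 0.118 to 4.23, so a few-fold difference in either direction could not be detected with so few peaks. The intervals on ratios of density given here treat peaks as independent counts and cover counting error only. The longest stretch without a listed pulldown peak, from 86454289 to 101705347 (15.3 Mb), ended just at the region 0.530 Mb before the highest peak. It was not empty of other signal: 138 even peaks (9.05 per Mb) and 162 odd peaks (10.6 per Mb) lay in it, of which 18 even and 19 odd ones had a partner in the other pool, and the authors' numbering of pulldown peaks advanced by 233 unlisted numbers.

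Even and odd peaks were somewhat denser around the highest peak than on the rest of the chromosome. Peaks inside it were left out of these counts. Within 5 Mb there were 101 even peaks (10.1 per Mb) against 8.34 per Mb on the rest, a ratio of 1.21 (exact 95% interval 0.975 to 1.49). Odd peaks numbered 123 (12.3 per Mb) against 9.25 per Mb, a ratio of 1.33 (1.09 to 1.61). Within 1 Mb the ratios were 1.36 (0.860 to 2.06), from 23 even peaks, and 1.70 (1.16 to 2.42), from 32 odd peaks. The odd ratios exceeded 1 by more than counting error at both widths, and the even ratios did not. When the first and last 3 Mb of the chromosome were left out of the rest, the even ratio within 5 Mb was 1.25 (1.01 to 1.54), just past counting error. Among the 50% of peaks with the highest scores in each list, the ratios within 5 Mb were 0.975 (0.690 to 1.34) for even and 1.22 (0.915 to 1.60) for odd peaks, so the excess did not exceed counting error in either pool there.

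**Figure D3:**
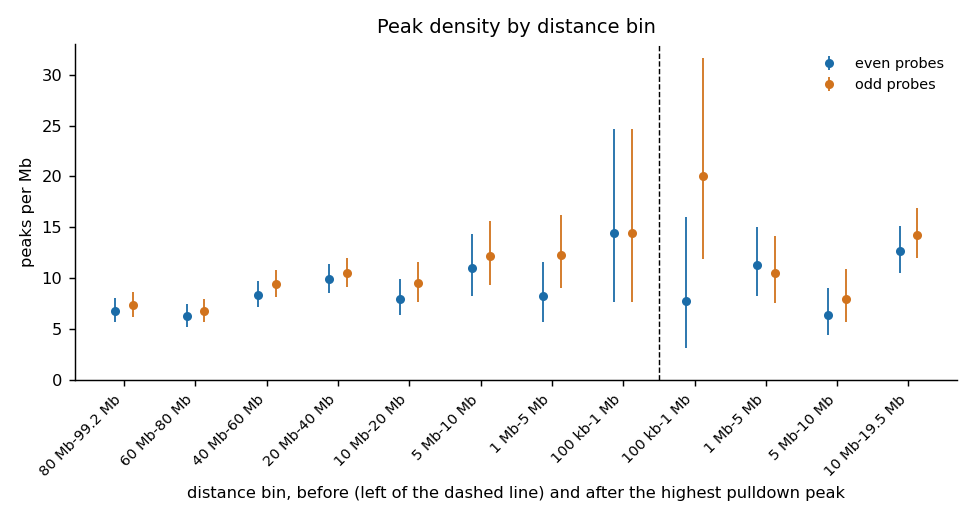
Even and odd peaks per Mb (y axis) in fixed bins of distance before and after the highest pulldown peak (x axis), from 100 kb to the first and last called positions; bars are exact 95% Poisson intervals of the counts. The highest value is 20 odd peaks per Mb between 100 kb and 1 Mb after the peak, from 18 peaks, and density is also high in the last bin.

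From 100 kb towards the ends of the chromosome, density fell unevenly with distance before the peak and did not fall steadily after it. Before the peak, even density went from 14.4 per Mb (13 peaks) between 100 kb and 1 Mb to 8.25 between 1 and 5 Mb, 11 between 5 and 10 Mb, 8 between 10 and 20 Mb, 9.90 between 20 and 40 Mb, 8.35 between 40 and 60 Mb, 6.25 between 60 and 80 Mb and 6.76 beyond 80 Mb. Odd density in the same bins was 14.4, 12.3, 12.2, 9.50, 10.5, 9.40, 6.75 and 7.33 per Mb. Among these bins both pools were thinnest at 60 to 80 Mb, while nearer than 100 kb on this side neither pool had a peak. Intervals between 5 and 10 Mb did not overlap those beyond 80 Mb in either pool. They were 8.29 to 14.3 against 5.65 to 8.03 for even and 9.33 to 15.7 against 6.17 to 8.65 for odd peaks. Those between 100 kb and 1 Mb, from 13 peaks in each pool, did overlap those beyond 80 Mb, as did the even one between 1 and 5 Mb. After the peak, even density was 7.78 per Mb (7 peaks) between 100 kb and 1 Mb, 11.3 between 1 and 5 Mb, 6.40 between 5 and 10 Mb and 12.7 from 10 Mb to the last called position. Odd density was 20, 10.5, 8 and 14.3 per Mb. The bin farthest from the peak on this side was denser than the one before it in both pools, by intervals that do not overlap (even 10.5 to 15.2 against 4.38 to 9.03, odd 12.0 to 16.9 against 5.72 to 10.9). Over consecutive windows of 10 Mb, the window that holds the highest peak was the 3rd densest of 13 in both pools. The least dense was that from 10 to 20 Mb, with 4.90 even and 5.90 odd peaks per Mb.

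A like density gain was found beside the highest pulldown peaks of other chromosomes. When each chromosome's own highest pulldown peak was taken as the centre, the odd ratio within 1 Mb lay between 0.722 and 2.37 on the 20 others, with a median of 1.43, and chromosome 11 was 7th of 21. The even ratio within 1 Mb lay between 0.743 and 2.86, and chromosome 11 was 8th. Within 5 Mb, where 20 chromosomes gave a ratio, chromosome 11 was 10th for odd and 12th for even peaks. This comparison was added after the values for chromosome 11 were seen.

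**Figure D4:**
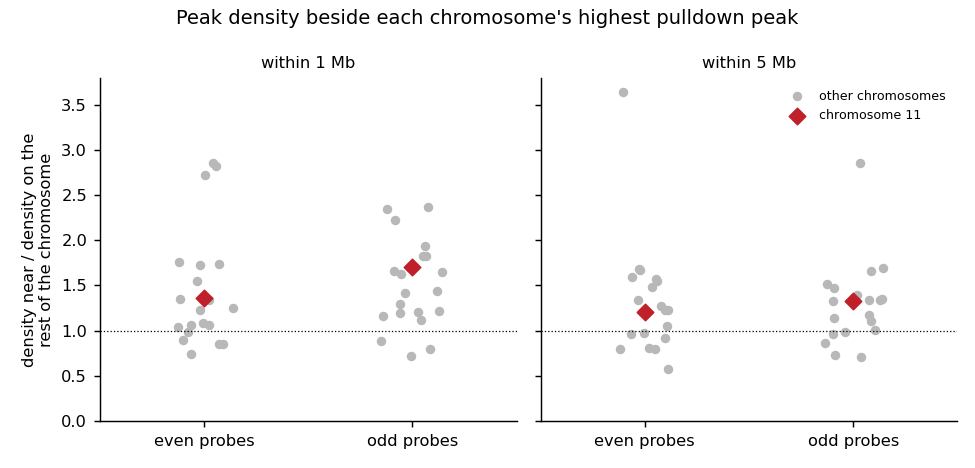
Density of even and odd peaks within 1 Mb (left) and 5 Mb (right) of each chromosome's highest pulldown peak, divided by the density on the rest of that chromosome (y axis, ratio); each point is 1 chromosome. Chromosome 11 (diamond) lies at 1.36 and 1.70 on the left and 1.21 and 1.33 on the right, inside the range of the others.

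Sharing between the pools was no higher on this chromosome than elsewhere. Among 1010 even peaks, 140 overlapped an odd peak by at least 1 bp (13.9%, exact Clopper-Pearson 95% interval 11.8% to 16.1%), against 15.4% of all even peaks. Of the 1129 odd peaks, 140 met an even peak (12.4%, 10.5% to 14.5%), against 13.5% of all odd peaks. Counted from the highest, chromosome 11 came 20th of 21 chromosomes in the even share and 17th in the odd share, while its densities of 8.51 even and 9.51 odd peaks per Mb were each the 4th highest. The interval of each share includes the share of all peaks.

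Near the highest peak, sharing did not stand out beyond counting error. Within 5 Mb, 12 of 101 even peaks (11.9%, 6.29% to 19.8%) had an odd partner, against 13.9% on the rest of the chromosome, and 12 of 123 odd peaks (9.76%, 5.14% to 16.4%) had an even partner, against 12.6%. Within 1 Mb, 6 of 23 even peaks (26.1%, 10.2% to 48.4%) were shared, against 13.4% on the rest. The 6 pairs were chosen for description after this count was seen. The 4 before the peak had even peaks at 101292717 to 101293221, 101320393 to 101320897, 101666036 to 101666575 and 101705337 to 101705846, with even scores of 2355, 2255, 2962 and 3817 and odd scores of 880, 1344, 1047 and 1803. After the peak, a pair at 102764859 to 102765241 had scores of 532 (even, rank 17754 of 18114) and 723 (odd, rank 18131 of 20596), and a pair at 103199316 to 103199842 had 2692 and 1366. The 1 of these 6 pairs that met a pulldown peak was the consensus region 0.530 Mb away.

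**Figure D5:**
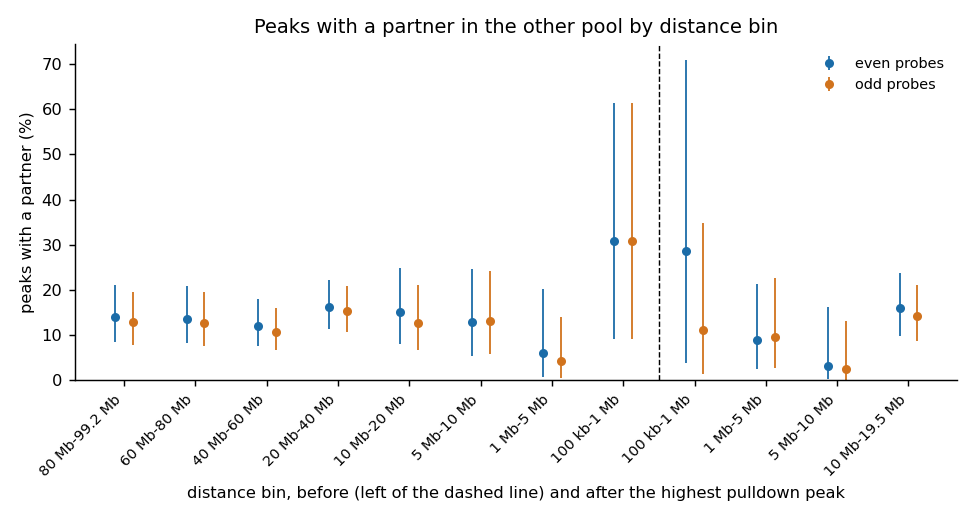
Share of even and odd peaks that meet a peak of the other pool (y axis, percent) in the same distance bins (x axis); bars are exact Clopper-Pearson 95% intervals. The value of 30.8% between 100 kb and 1 Mb before the peak is 4 of 13 peaks in each pool, with an interval of 9.09% to 61.4%, and beyond 1 Mb all values lie between 2.50% and 16.2%.

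Score rank of even and odd peaks did not rise towards the highest peak. Ranks are given as percentiles of the whole list, where 100 is the highest score. The 2 other pulldown peaks within 5 Mb had a median percentile of 60.6, against 36.1 for 21 on the rest, which is too few to show a trend. Even peaks within 5 Mb had a median percentile of 45.1, against 51.0 on the rest of the chromosome, and odd peaks had 49.4 against 51.5. Within 1 Mb the medians were 47.4 (even) and 40.4 (odd), and no odd peak within 1 Mb other than that at the centre was in the highest 10% of its list, where 95 of 1096 on the rest were. Of the 23 even peaks within 1 Mb, 3 were in the highest 10%. Most of the 32 odd peaks within 1 Mb thus scored below the middle of their list, with a median score of 1007.5 against 1169.5 on the rest. The 95% interval of their median percentile was 23.8 to 49.9. Whether the lack of odd peaks in the highest 10% there exceeds counting error was not tested. Across peaks, Spearman's rho between score percentile and log distance was 0.0172 over 1008 even peaks and 0.0626 over 1128 odd peaks. These are descriptions over positions of single libraries. Over the whole chromosome, 101 even peaks (10%) were in the highest 10%, against 10.1% of all even peaks, and 96 odd peaks (8.50%), against 9.98% of all odd peaks.

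Where the pools met, they met closely. Outside the highest peak there were 139 pairs, with a median overlap of 437 bp and a median distance of 20 bp between midpoints, and in 137 pairs over 50% of the shorter peak was covered. Most pairs joined a high even peak with an ordinary odd peak: the median even percentile was 92.8 and the median odd percentile 54.5. The even score was in the highest 10% in 84 of the 139 pairs and the odd score in 3. The same counts for other chromosomes are not given here, so this pattern is not shown to be particular to chromosome 11. Even and odd scores had a Spearman rho of 0.544 across these pairs, which share their libraries and their chromosome. Unshared even peaks lay a median of 33.1 kb from the nearest odd midpoint.

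Besides the pairs at the highest peak, 3 pairs had both scores in the highest 10%. The pair with the highest summed rank was at 97019611 to 97020115, 5.22 Mb before the centre, with an even score of 2906 and an odd score of 3628. It met no pulldown peak and is therefore not in the consensus. The pair at 120441981 to 120442503, 18.2 Mb after the centre, had scores of 3863 and 2709 and met no pulldown peak either. The pair at 29711564 to 29712096 had 3326 and 2694 and met the pulldown peak with a score of 1073. All consensus regions of the chromosome met a pulldown, an even and an odd peak. Pairs without a pulldown peak thus fall outside that list whatever their ranks in the pools.

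Few even or odd peaks met a pulldown peak: 13 even peaks (1.29%), against 1.72% of all, and 22 odd peaks (1.95%), against 2.29% of all. In turn, 12 of the 24 pulldown peaks met an even peak, against 60.2% of all pulldown peaks, and 22 met an odd peak, against 91.1% of all. By partner they fell into 3 kinds. Both pools were met by 10 (41.7%, 22.1% to 63.4%), against 51.6% of all pulldown peaks. An odd peak alone was met by 12 (50%, 29.1% to 70.9%), against 39.5% of all, and an even peak alone by 2, against 8.51% of all. The odd-only peaks were about as high in the pulldown (median score 797.5, range 686 to 1276) as the 9 peaks other than the highest that met both pools (median 817, highest 1073). Their odd partners scored between 2632 and 5008 with a median of 3847, whereas the odd partners of those 9 peaks scored between 1278 and 2694 with a median of 1676. The even partners of the 9 scored between 3259 and 4002. Partner scores of these kinds over all pulldown peaks are not given here, so the contrast is not shown to be particular to chromosome 11. The 2 even-only pulldown peaks, at 4347030 to 4347571 and 59419798 to 59420288, had even scores of 2074 and 3076. Of the 10 pulldown peaks that met both pools, the highest was the only one with partners among the 100 highest scores of both pools. Whether the pulldown reads include those of the pools is stated in no source used here and was not tested.

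The highest of the odd-only pulldown peaks was at 20270561 to 20271207, 82.0 Mb before the centre. Its pulldown score of 1276 ranked 20th, and its odd peak, with a score of 5008, was the 5th highest of all odd peaks and the highest of the chromosome, above that at the centre (4756). Further odd-only pulldown peaks among the 10 highest of the chromosome were at 43249571 to 43250134 (score 890), 79462472 to 79463043 (883) and 59900989 to 59901542 (871). The closest even midpoint to any of the 12 lay 0.998 kb away, and the median was 36.0 kb. Of the 5 highest odd peaks of the chromosome, those at 115918280 to 115918865 (4542), 9170729 to 9171403 (4418) and 20591606 to 20592211 (4381) met neither an even nor a pulldown peak. The 5 highest even peaks all had odd partners, and those at the centre met the same odd peak. Of these, 62465663 to 62466242 (3827) and the peak at 120441981 met no pulldown peak. The contrast holds for high peaks of the chromosome in general. In the highest 10% of each list, 85 of 101 even peaks and 4 of 96 odd peaks there had a partner in the other pool.

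The 9 consensus regions outside the highest peak were spread from one end of the chromosome to the other. Those before it were at 16786511 to 16787000 (pulldown score 801), 18804800 to 18805289 (680), 29711564 to 29712083 (1073), 54611310 to 54611838 (774), 64613756 to 64614279 (817), 82665924 to 82666501 (878) and 101705382 to 101705846 (828). After it came 107133512 to 107133967 (893) and 121612944 to 121613404 (674), the last 19.4 Mb away. Their even peaks all ranked between 34 and 339, and their odd peaks between 1852 and 8882. The highest pulldown score among them lies 72.5 Mb away, and the region nearest the centre ranks 4th of the 9. Those with 893 and 878 lie nearer, at 4.90 and 19.6 Mb, and the lowest, 674, lies at 19.4 Mb. With 9 regions a trend of the pulldown score with distance can be neither shown nor excluded.

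The control lists held 8 peaks each on this chromosome, and none of them met an even or odd peak. Even peaks covered 458 kb and odd peaks 517 kb of the 118.7 Mb between the first and last called positions. With so few control peaks, hardly any meeting would arise by position alone, so its absence says little about background in the pools. The no-probe scores ranged from 37 to 111, the RNase scores from 23 to 183 and the input scores from 172 to 539. Within 5 Mb of the highest peak lay 1 no-probe peak, 4 RNase peaks and no input peak. Apart from the no-probe and RNase peaks inside the highest pulldown peak, no control peak of the chromosome met a pulldown peak.

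The authors' peak numbers give a view of calls that are not in the lists. In the pulldown, even and odd lists the numbers rose with position on all 21 chromosomes, so the advance of the number along the sequence counts numbered peaks, if numbers were given out without gaps. On chromosome 11 the numbers spanned 7120 for the even list, of which 14.2% were listed, 6729 for the odd list (16.8% listed) and 1585 for the pulldown (1.51% listed). On the other chromosomes 14.6%, 17.1% and 2.10% were listed. Numbers advanced by 72.7 per Mb (even) and 67.2 per Mb (odd) within 5 Mb of the centre, against 58.8 and 56.1 on the rest, ratios of 1.24 and 1.20. The share listed within 5 Mb was 14.3% and 18.6%. The ratios from listed peaks at this width were 1.21 (even) and 1.33 (odd). Within 1 Mb the ratios from numbers were 1.24 (even) and 1.37 (odd), where listed peaks gave 1.36 and 1.70, and 21.3% of the odd numbers were listed there. All advances were taken between the first and last listed peaks in a window. For the pulldown within 5 Mb these lay only 0.530 Mb before and 4.90 Mb after the centre. The ratio from numbers for that stretch was 1.43, with the remaining part of the window counted in the rest. The listed peaks gave 1.04 from 2 peaks over the whole window, so these pulldown ratios cover unlike stretches. The ratios from numbers include the peaks at the centre and have no interval. Across the 13 windows of 10 Mb, the even numbers advanced by between 35.0 and 82.4 per Mb. The lowest was in the window from 10 to 20 Mb and the highest in the last, which was only 1.69 Mb long, the same windows as for listed peaks.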

How the data were processed

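ChIRP-seq libraries of MEL cells were analysed, 1 per condition. The authors used Bowtie2, bedtools and the build mm9, per the submitters' processing notes. No source used here gives versions, the peak caller or its thresholds. Each deposited list gives 1 score per peak, on a scale not stated, so scores were ranked and compared only within a list. Read counts were not part of the lists, and depth is unknown. The members and lists were chosen with earlier results of these data known. Peaks met when they overlapped by at least 1 bp. Distances ran between midpoints. Shares have exact Clopper-Pearson 95% intervals, densities exact Poisson intervals and ratios exact conditional binomial intervals, all for counting error only. The chromosome was taken from the first to the last called position in any list (3001730 to 121694639). Named were all consensus regions, the odd- or even-only pulldown peaks among the 10 highest, the 5 highest even and odd peaks, all peaks within 100 kb of the centre, the nearest pulldown peaks, and pairs with both scores in the highest 10%. Functions were tested on simulated data. Alternatives were other overlap rules, other window widths, the top 50% of scores and removal of control-met or central peaks. Python 3.11.15, numpy 2.4.6, pandas 2.3.3, SciPy 1.17.1 and matplotlib 3.10.9 were used. Erythroid genes were not placed, as no mm9 annotation was used here.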

Additional observations from a re-analysis of the deposited data

How the results depend on the processing

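Of 37 alternative values for 7 results, 35 stayed within the exact interval of the reported value. Not all of them could have moved. No even or odd peak met a control peak, so removing control-met peaks left both sharing values unchanged. For the pulldown, removing control-met peaks and removing the highest peak took out the same peak. The 2 values outside their interval were densities near the highest pulldown peak. The even ratio within 5 Mb was 0.975 among the 50% of peaks with the highest scores, against 1.21, and the odd ratio was 1.70 within 1 Mb, against 1.33 within 5 Mb. The cause was not tested. The interval of the even ratio, which includes 1, no longer did so without the first and last 3 Mb of the chromosome (1.25, 1.01 to 1.54), and that of the odd ratio, which excludes 1, included it among the top 50% by score (1.22, 0.915 to 1.60). Sharing ranged from 13.2% to 15.0% for even peaks, 11.8% to 13.0% for odd peaks and 37.5% to 41.7% for pulldown peaks that met both pools. The highest pulldown peak itself met both pools under neither the 50% reciprocal overlap rule nor the 1 kb midpoint rule. Its widest even partner covered 32.9% of it, and its odd midpoint lay 1.08 kb away. The midpoint rule still gave 41.7%, as an odd-only peak with an even midpoint 0.998 kb away was counted in its place. The difference in median percentile ranged from -5.92 to -0.605 for even peaks and from -11.2 to 1.41 for odd peaks. Its sign changed for odd peaks among the top 50% by score. The ratio from peak numbers was chosen after seeing the data. No paired analysis was possible because each condition has 1 library, and no replicate could be left out. The small number of pulldown peaks limits the precision of their densities.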
